A study of Mus musculus with 8 samples.

Results

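The interferon response genes described here are 33 genes that cells switch on when interferon binds its receptors. They were chosen by gene symbol, and all 33 were found among the 20863 named genes of the array. One value per gene was used, that of the array feature with the highest mean over all arrays. The question was whether these genes differ between newborn lungs labelled heterozygous for Fgf10 and wild-type lungs after both were kept in high oxygen.

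Whole lungs of C57Bl/6J mouse pups were profiled on 8 single-colour Agilent arrays, 4 for each genotype. The TG arrays (TG1 to TG4) carry the genotype label Fgf10 +/-, and the WT arrays (WT1 to WT4) come from wild-type pups. Pups of both groups breathed 85% oxygen from postnatal day 0 to day 3. Room-air controls are not part of the comparison, so no value here measures a response to oxygen. The sample names read TG although the genotype label describes loss of 1 gene copy. The labels give neither litter nor sex of the pups, so p-values measure only the spread between these samples.

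The Fgf10 signal did not separate the genotypes in the direction of the labels. Its brightest feature read 7.81, 7.99, 8.10 and 8.28 on the log2 scale in TG1 to TG4, and 7.53, 8.16, 7.91 and 7.64 in WT1 to WT4. It was not lower in the TG arrays, and all 10 of its features, which read the same samples and are not independent, had the higher mean there. All directions below therefore rest on the labels alone. Lung markers were bright, with surfactant protein C (Sftpc) at 15.98 to 15.99 in every array, near the top of the scale. Xist, the RNA of the inactive X chromosome, read 6.29 to 6.85 in 5 arrays and 1.93 to 2.63 in TG2, TG3 and WT3. Correlations between arrays were 0.976 to 0.985 within a group and 0.974 to 0.987 across groups.

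Type I and type III interferons are secreted when sensors detect foreign or misplaced nucleic acid. They act through the kinases JAK1 and TYK2, which activate a complex that holds STAT2 and IRF9. It binds the interferon-stimulated response element (ISRE) in the promoters of antiviral genes. Type II interferon, made by T and NK cells, acts at gamma-activated sites (GAS) and induces GTPases and antigen presentation genes most strongly. Many of the genes are also expressed at a low basal level in healthy lung epithelium, endothelium and leukocytes.

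Promoter sequences are shown first for Isg15, which had the best supported difference, and for Ifit1, Gbp2 and Igtp. The last are only some of the 9 genes, named below, that were highest in WT1 and TG2. Of the rest, Irf9 held no core, Ifih1 had its core after the start, and Oas1a held cores not shown. Mx1, Zbp1 and Parp14 had no promoter window. The sequences come from RefSeq on assembly GRCm38.p6 and run 5′ to 3′ on the strand of the gene. Capitals mark ISRE cores, and 10 flanking bases stand on each side.
Isg15: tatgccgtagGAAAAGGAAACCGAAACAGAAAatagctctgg
Ifit1, distal core: caggcttcagTTTCACTTTCcagtctcagt
Ifit1, proximal core: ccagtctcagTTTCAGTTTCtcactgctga
Gbp2: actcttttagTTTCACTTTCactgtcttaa
Igtp: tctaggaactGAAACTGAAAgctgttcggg

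The ISRE core searched was GAAANNGAAA on either strand, so a core on the opposite strand reads TTTC, a gap of 2 bases and TTTC, as in Ifit1 and Gbp2. Isg15 holds 3 overlapping cores 57 to 78 bases before its start, within the window shown at chr4:156200865-156200906 on the minus strand. The Ifit1 windows lie at chr19:34640775-34640804 and chr19:34640794-34640823 on the plus strand, with their cores between 76 and 104 bases before the start. Gbp2 (chr3:142620594-142620623, plus strand) has its core 50 to 59 bases before the start. In Igtp (chr11:58199512-58199541, plus strand) the core is 25 to 34 bases before the start.

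A promoter window, from 250 bases before the start to 50 after it, was given for 24 of the 33 genes. An ISRE core was present in 15 of these 24 genes, beside 3.99% of all 27025 genes with a promoter. The GAS letters TTCNNNGAA were present in 4 of the 24 (Bst2, Ifit2, Igtp and Oas1a), beside 9.55% of all genes. The windows of Cmpk2, Dtx3l, Ifi44, Ifit2, Irf7, Irf9, Oasl1, Oasl2 and Xaf1 held no match to the ISRE core. A match is only a match of letters, and no match says only that these letters are not in the window.

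None of the 33 genes differed between the genotypes after adjustment over the 17229 genes tested (limma with Benjamini-Hochberg adjustment, adjusted p below 0.05). The same fit called 137 genes, 0.795% of all those tested. Isg15, an antiviral ubiquitin-like protein, came nearest, with an adjusted p of 0.0926. At an unadjusted p below 0.05, 4 of the 33 passed, all higher in TG arrays, namely Isg15, Oasl1, Mx2 and Rtp4. Over all genes 11.2% passed that level, 5.39% as higher and 5.79% as lower in TG arrays. A count of 4 is close to the background of both directions together. By direction, the 4 higher genes are a larger share than 5.39%, and 0 were lower. The list was not tested as a set.

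The 33 genes did not share 1 direction. The TG mean was higher for 21 genes and lower for 12, with a median log2 fold change (TG minus WT) of 0.061, beside 0.0068 over all genes tested. The log2 fold change was smaller than 0.25 in either direction for 24 genes. For 27 genes the 95% interval lay within a 2-fold change (1 log2 unit) either way, and for 10 it lay within 0.5 log2 units. The intervals of the other 6 reached beyond 2-fold. The median half-width of the intervals was 0.47 log2 units, from 0.21 to 1.26, and 0.40 over all genes. These intervals are for single genes, without adjustment. With 4 arrays a group, a difference smaller than its half-width could not be called. Some larger ones were not called either, such as 0.64 for Isg15 (limma, adjusted p = 0.0926). In whole lung, fewer cells of a type and less RNA per cell cannot be told apart.

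**Figure D1:**
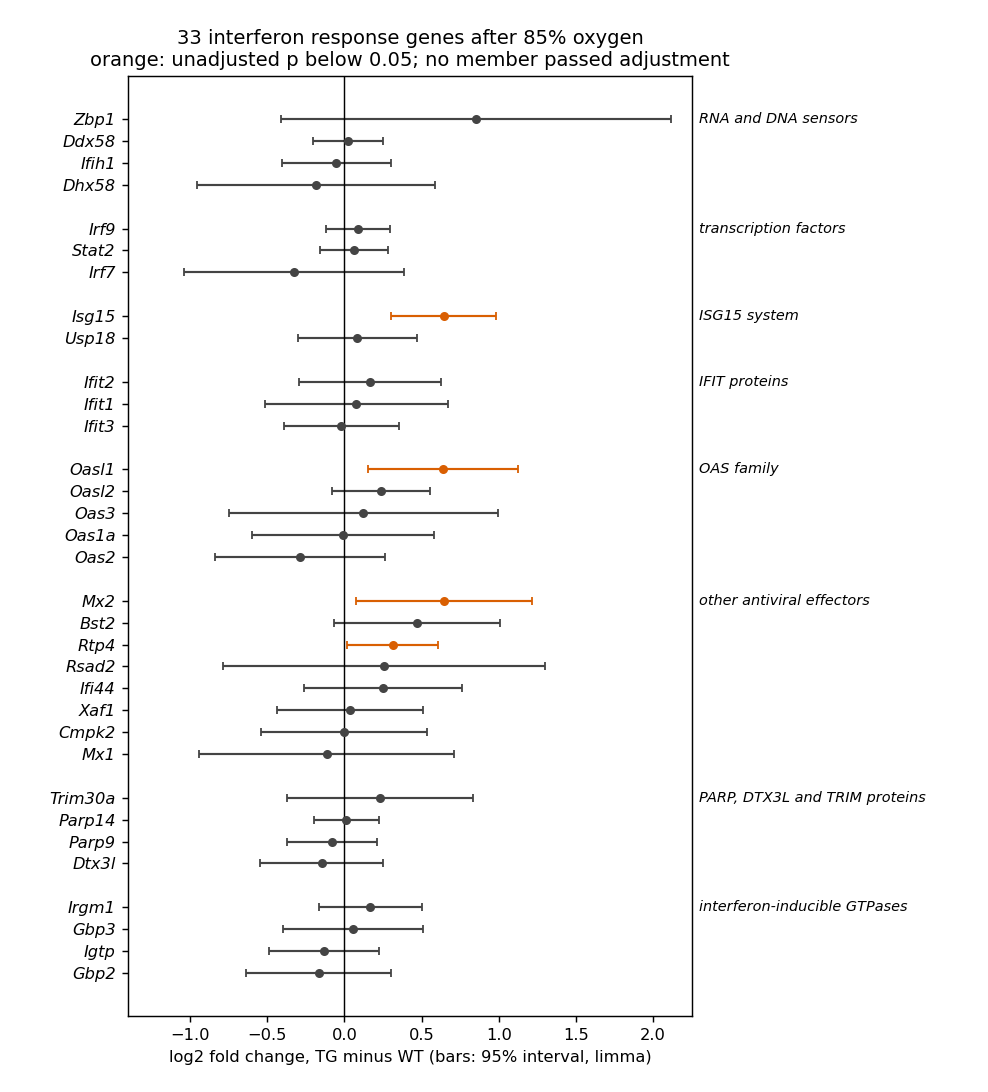
Log2 fold change (TG minus WT, horizontal axis) of each of the 33 genes grouped by role, with 95% intervals from limma; orange points have an unadjusted p below 0.05. Isg15, Oasl1, Mx2 and Rtp4 are the orange points, all to the right of 0, and the interval of Zbp1 is the widest.

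ISG15 is conjugated to target proteins and is also secreted, and USP18 removes it again and dampens signalling at the type I receptor. Isg15 read 9.89, 9.45, 9.21 and 9.93 in TG1 to TG4 and 8.91, 8.98, 8.79 and 9.23 in WT1 to WT4. TG3 lay just under WT4, and the other 3 TG arrays stood above every WT array. The means were 9.62 ± 0.35 and 8.98 ± 0.19 (SD, n = 4 each), a log2 fold change of 0.64 with a standard error of 0.16. This is a 1.56-fold difference with a 95% interval of 1.23 to 1.98.

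A second, dimmer Isg15 feature gave 5.80, 5.35, 5.18 and 6.14 in TG1 to TG4 and 5.26, 5.16, 4.79 and 5.08 in WT1 to WT4. It ordered the TG arrays in the same way, with TG4 and TG1 highest and TG3 lowest, and its mean difference was 0.55. The call on Isg15 depended on the fit. Its adjusted p was 0.31 without the variance trend and 0.236 with the mean of its features. Without TG3 its log2 fold change was 0.78 with an adjusted p of 0.0489, and with the Xist level as a covariate it was 0.74 with an adjusted p of 0.0198. Leaving out each of the other 7 arrays gave an adjusted p between 0.093 and 0.258. Among the 5 arrays with high Xist (TG1, TG4, WT1, WT2 and WT4) the TG mean of Isg15 was higher by 0.87, with no overlap of the genotypes. The share of all genes without overlap in so few arrays was not counted. The 3 arrays with low Xist hold only 1 WT array, WT3, and both TG arrays read above it, by 0.54 on average. Usp18 differed by 0.084 (interval -0.30 to 0.47), and its TG arrays spread from 7.55 to 8.42 around the WT arrays at 7.91 to 8.07.

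The OAS proteins make or resemble enzymes that make 2′-5′-linked oligoadenylates, the activators of RNase L, while OASL1 lacks that activity and represses translation of Irf7. Oasl1 read 6.42, 6.62, 6.70 and 6.67 in TG1 to TG4 and 6.25, 6.38, 5.64 and 5.57 in WT1 to WT4. It was the only gene of the 33 whose groups did not overlap, beside 6.64% of all genes, with WT2 just below TG1. The log2 fold change was 0.64 (interval 0.15 to 1.13, adjusted p = 0.28). The WT arrays were themselves split, with WT1 and WT2 close to the TG arrays and WT3 and WT4 lower.

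The other OAS genes did not share this pattern. Oasl2, next to Oasl1 in the gene order, differed by 0.24 (interval -0.078 to 0.56). Oas2 read 5.75, 5.68, 5.42 and 6.02 in TG1 to TG4 and 6.41, 6.33, 5.48 and 5.80 in WT1 to WT4, a log2 fold change of -0.29 (interval -0.84 to 0.26). Its highest values were in WT1 and WT2, and the groups overlapped. Oas1a differed by -0.0095 and Oas3 by 0.12. Oas3 was dim, with group means of 2.89 and 2.77 against the filter level of 2.76.

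Among the other antiviral effectors, Mx2 and Rtp4 passed the unadjusted level. Mx1 and Mx2 encode dynamin-like GTPases that block viral replication, and both genes carry defects in most inbred laboratory strains. Mx2 read 5.69, 5.62, 6.33 and 5.87 in TG1 to TG4 and 5.16, 5.31, 5.71 and 4.76 in WT1 to WT4. The difference was 0.65 (interval 0.072 to 1.22, adjusted p = 0.371), and WT3 lay above TG1 and TG2. Mx1, the neighbouring family member in function, read 2.68, 3.79, 3.07 and 3.73 in TG1 to TG4 and 4.04, 3.45, 3.05 and 3.19 in WT1 to WT4. Its difference was -0.12 (interval -0.94 to 0.71), at intensities near the filter level.

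RTP4 is an interferon-induced receptor transporter protein. Rtp4 read 9.54, 9.78, 9.65 and 9.82 in TG1 to TG4 and 9.28, 9.83, 9.18 and 9.24 in WT1 to WT4. WT2 held the highest value of all, while the other 3 WT arrays were below every TG array. The log2 fold change was 0.31 (interval 0.016 to 0.61, adjusted p = 0.413). BST2, or tetherin, holds budding virus at the cell surface. Bst2 read 9.55, 10.04, 10.06 and 10.57 in TG1 to TG4 and 9.62, 8.82, 10.19 and 9.70 in WT1 to WT4. WT2 was lowest, the groups overlapped, and the difference was 0.47 (interval -0.066 to 1.01).

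**Figure D2:**
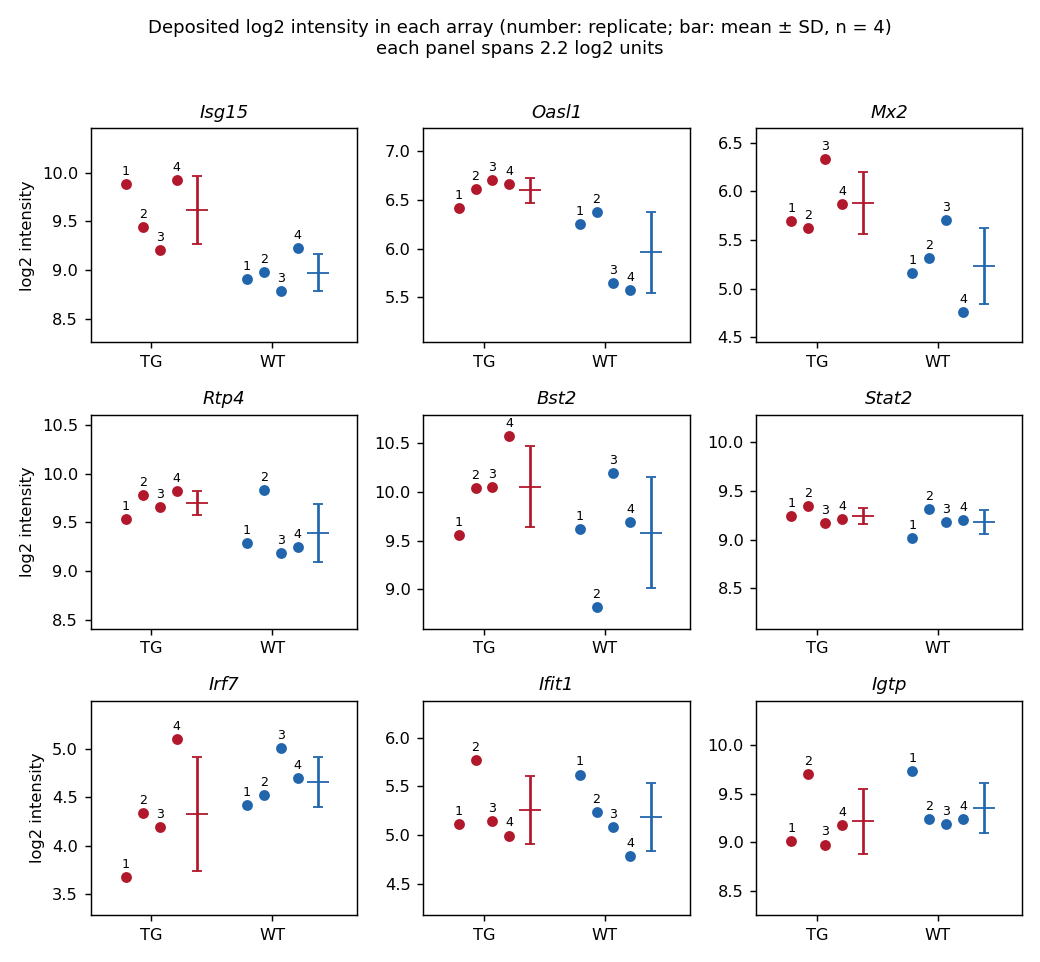
Deposited log2 intensity (vertical axis, each panel spanning 2.2 log2 units) of 9 genes in the 4 TG (red) and 4 WT (blue) arrays, with array numbers and the mean ± SD (n = 4). Isg15 has 3 TG arrays above all WT arrays, Oasl1 separates the groups, and Igtp is highest in WT1 and TG2, one array of each group.

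RSAD2, or viperin, makes a nucleotide analogue that ends viral RNA chains, and CMPK2 is a mitochondrial nucleotide kinase whose gene lies next to Rsad2. Rsad2 read 8.49, 7.39, 7.23 and 8.19 in TG1 to TG4 and 6.51, 8.41, 6.46 and 8.89 in WT1 to WT4. Each group held both high arrays (TG1, TG4, WT2 and WT4) and low ones, and the difference of 0.26 had an interval of -0.79 to 1.30. Cmpk2 read 7.29, 7.12, 7.64 and 7.04 in TG1 to TG4 and 7.03, 8.03, 7.34 and 6.72 in WT1 to WT4, a difference of -0.0034. WT4, where Rsad2 was highest, was the array where Cmpk2 was lowest. Ifi44 read 5.87, 5.40, 6.17 and 5.86 in TG1 to TG4 and 5.68, 5.84, 5.34 and 5.45 in WT1 to WT4. Its difference was 0.25 (interval -0.26 to 0.76), with TG2 among the low arrays. The proapoptotic gene Xaf1 differed by 0.036, with arrays from 8.11 to 9.31.

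The IFIT proteins bind viral RNA ends and block its translation. Ifit1 read 5.12, 5.77, 5.14 and 4.99 in TG1 to TG4 and 5.62, 5.23, 5.09 and 4.78 in WT1 to WT4. The 2 highest arrays, TG2 and WT1, were 1 of each group, and the difference was 0.077 (interval -0.52 to 0.67). Ifit2 differed by 0.17 and Ifit3 by -0.020, and both were lowest in WT4, at 6.29 and 7.98.

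Of the sensors, DDX58 (RIG-I) and IFIH1 (MDA5) detect viral RNA, DHX58 (LGP2) modulates them, and ZBP1 detects Z-form nucleic acid and can start necroptosis. Ddx58 had one of the narrowest intervals, 0.022 (-0.21 to 0.25), and Ifih1 differed by -0.054 (-0.41 to 0.30). Dhx58 differed by -0.18 (-0.96 to 0.59), with TG arrays from 4.01 to 5.62. Zbp1 had the largest difference of the 33, 0.85, and the widest interval, -0.41 to 2.12. It read 4.12, 5.62, 3.72 and 4.35 in TG1 to TG4 and 5.46, 2.76, 3.62 and 2.57 in WT1 to WT4. TG2 and WT1 were again the highest arrays, and a second Zbp1 feature differed by -0.15, in the opposite direction.

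None of the 3 transcription factors passed either level. Stat2 read 9.24, 9.35, 9.17 and 9.21 in TG1 to TG4 and 9.02, 9.32, 9.19 and 9.20 in WT1 to WT4. The range over all 8 arrays was 0.33, and the difference was 0.061 (interval -0.16 to 0.28). Irf9 differed by 0.087 (interval -0.12 to 0.30). Irf7, which amplifies the type I response and is itself strongly interferon-induced, read 3.68, 4.34, 4.20 and 5.10 in TG1 to TG4 and 4.42, 4.52, 5.00 and 4.69 in WT1 to WT4. TG1, TG2 and TG3 lay below every WT array, but TG4 held the highest value. The difference was -0.33 (interval -1.04 to 0.38), against the direction of Isg15.

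PARP9 and DTX3L act as a ubiquitin ligase pair in interferon signalling, and PARP14 is an ADP-ribosyltransferase encoded beside them. Their genes lie in a row and differed by -0.078 (Parp9), -0.15 (Dtx3l) and 0.012 (Parp14). Parp14 was the steadiest of the 33 between TG arrays, at 9.22 to 9.27, and all 3 were highest in WT1. Trim30a, a regulator of inflammatory signalling, differed by 0.23 (interval -0.37 to 0.84).

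The interferon-inducible GTPases GBP2, GBP3, IRGM1 and IGTP act at membranes around intracellular microbes. Their differences were small, -0.17 for Gbp2, 0.054 for Gbp3, 0.17 for Irgm1 and -0.13 for Igtp. Igtp read 9.01, 9.70, 8.98 and 9.18 in TG1 to TG4 and 9.73, 9.24, 9.19 and 9.24 in WT1 to WT4. Gbp2 read 8.30, 9.16, 8.27 and 8.42 in TG1 to TG4 and 9.27, 8.49, 8.68 and 8.38 in WT1 to WT4. In both genes WT1 and TG2 stood above the other 6 arrays. Igtp was measured by 10 features, and WT1 and TG2 were the 2 highest arrays on all 10. The TG mean was lower on each of them, by 0.011 to 0.24. The features read the same samples, so they are not independent and do not replicate the genotype difference.

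**Figure D3:**
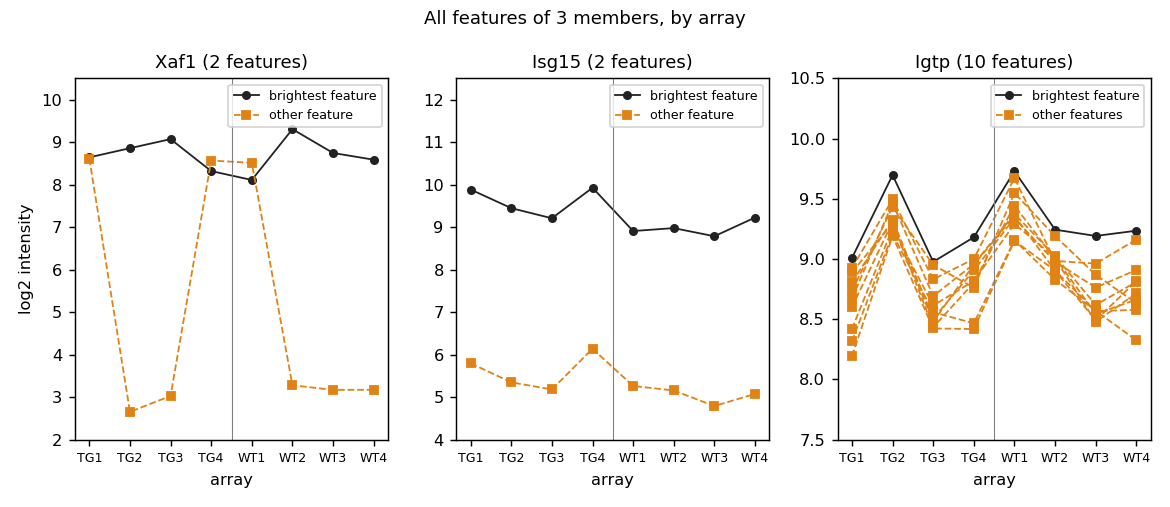
Log2 intensity (vertical axis) by array (horizontal axis) on every feature of Xaf1, Isg15 and Igtp, with the brightest feature in black. All 10 Igtp features peak in TG2 and WT1, both Isg15 features are highest in TG4 and TG1, and the 2 Xaf1 features disagree.

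The spread between arrays of 1 group was as large as most genotype differences. The median SD within a group was 0.32 log2 units over the 33 genes, beside 0.26 over all genes. WT1 held the highest value of 10 genes and WT4 the lowest of 11, and WT1 was the highest array for 13.2% and WT4 the lowest for 19.3% of all genes. Only 4 of the 33 genes were above their own 8-array mean in WT4, beside 12 to 20 genes in the other arrays. Averaged over the 33 genes, the deviation from each gene's mean was -0.014, 0.14, -0.030 and 0.14 in TG1 to TG4 and 0.13, -0.011, -0.15 and -0.21 in WT1 to WT4. TG2, TG4 and WT1 were nearly level at the top, so the groups overlapped.

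**Figure D4:**
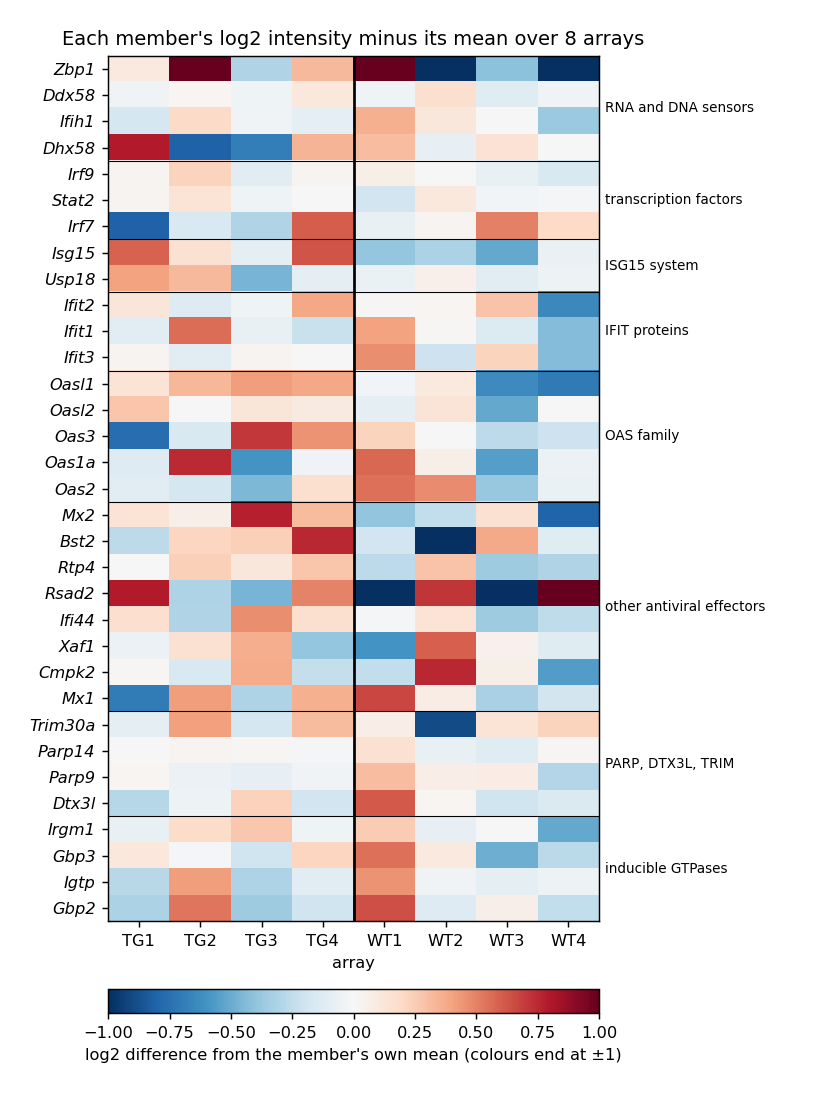
Log2 intensity of each of the 33 genes minus its own mean over the 8 arrays (colour, red above and blue below the mean, ending at ±1 log2 unit), with genes in rows by role and arrays in columns. WT1 and TG2 are both red for Igtp, Gbp2, Zbp1 and Ifih1, the WT4 column is mostly blue, and the Isg15 row is red in TG1 and TG4.

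The pairing of WT1 and TG2 was seen after the values were known and is described without a test. They held the 2 highest values in 9 of the 33 genes (Ifit1, Irf9, Mx1, Oas1a, Zbp1, Ifih1, Parp14, Gbp2 and Igtp), beside 4.49% of all genes. The same was seen in 6 of 13 interferon gamma-induced GTPases and chemokines outside the 33 (Gbp4, Irgm2, Ifi47, Cxcl9, Cxcl10 and Cd274). It was also seen in 8 of 16 antigen presentation genes (H2-K1, H2-D1, H2-T23, Psmb8, Psmb9, Psmb10, Psme2 and H2-Aa). These counts go by rank alone, and some gaps were small. Parp14 read 9.27 in TG2 and 9.26 in WT4, and Mx1 read 3.79 in TG2 and 3.73 in TG4. Cxcl10, the chemokine that draws activated T cells, read 6.89 in WT1 and 6.17 in TG2, and 2.74 to 4.66 in the other 6 arrays. Isg15 went its own way, and its 2 highest arrays were TG4 and TG1.

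Leukocyte markers moved partly with the same arrays. The mean deviation of 7 T and NK cell markers was 0.43 in TG2, 0.25 in WT1 and -0.33 to 0.14 in the other arrays. For 6 markers listed for leukocytes in general (Ptprc, Laptm5, Coro1a, Cd52, Tyrobp and Fcer1g) it was 0.41 in WT1 and 0.11 in TG2. Elsewhere it was -0.38 to 0.095, with the lowest value in WT4. Monocyte markers stood at 0.64 in WT1 and 0.027 in TG2. Neutrophil markers stood at 0.60 in WT1 and -0.32 in TG2, and at 0.53 in TG1. B cell markers stood at 0.36 in TG2 and -0.24 in WT1, and at 0.43 in TG4. The part of these cells in the array pattern was not tested.

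**Figure D5:**
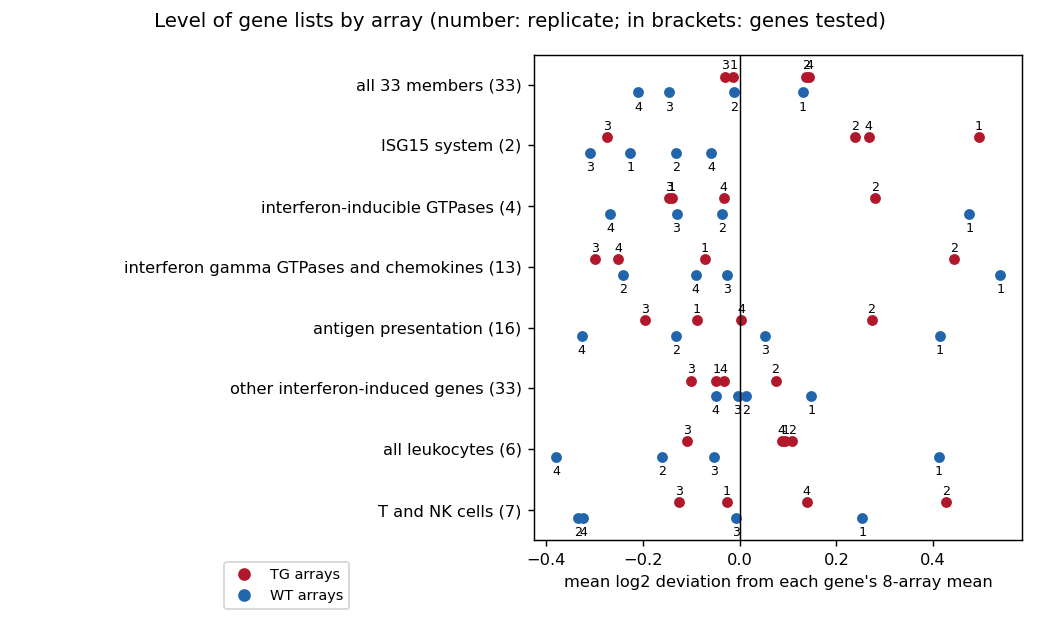
Mean log2 deviation from each gene's 8-array mean (horizontal axis) for gene lists (vertical axis, number of genes in brackets) in TG (red) and WT (blue) arrays, with array numbers. WT1 and TG2 lie to the right for the interferon gamma GTPases (0.54 and 0.44) and antigen presentation (0.41 and 0.27), and the genotypes overlap on every list.

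The rest of the pathway was read from 8 gene lists holding 111 tested genes outside the 33. None of the 111 passed after adjustment. At an unadjusted p below 0.05, 4 were higher and 9 lower in TG arrays, beside 5.39% and 5.79% of all genes. Their median log2 fold change was -0.0084. The groups did not overlap for 4 genes that were higher and 4 that were lower in TG arrays, near the 6.64% of all genes.

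Of 13 listed interferon ligands 10 were tested, Ifnb1 and Ifna4 were below the filter, and Ifnl2 was not analysed here. Most were dim, such as Ifne with group means of 3.23 and 2.60 and Ifng with 3.15 and 3.37, near the filter level of 2.76. The brightest was Gm13271, listed as Ifnz, with means of 5.72 in TG and 5.57 in WT arrays. Ifnk, an epithelial type I interferon, read 4.77, 4.43, 4.20 and 5.42 in TG1 to TG4 and 3.09, 4.00, 3.72 and 3.71 in WT1 to WT4. Its groups did not overlap, with a difference of 1.08 (interval 0.33 to 1.82, adjusted p = 0.221). Ifna11 differed by 1.27 (interval 0.22 to 2.33, adjusted p = 0.331), with TG3 among the WT arrays, and Ifnl3 by -0.86 (interval -1.98 to 0.27). Whether features this dim lay above background was not tested.

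None of the 6 receptor genes passed either level, and their differences lay between -0.12 and 0.10. Ifnar1 differed by 0.10 (interval -0.13 to 0.33), Ifngr1 by -0.080 (-0.27 to 0.11) and Ifngr2 by -0.12 (-0.32 to 0.090). Of 9 JAK, STAT and IRF genes none passed either level. Jak1, the kinase shared by all 3 interferon types, read 10.84 to 10.86 in the TG arrays and 10.89 to 11.13 in the WT arrays. The groups did not overlap, yet the difference was only -0.15 (interval -0.32 to 0.021). Irf8 differed by 0.20 and Irf2 by 0.25.

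Of 11 negative regulators, Adar, which edits double-stranded RNA so that sensors do not detect it, was 0.30 higher in TG arrays (interval 0.031 to 0.56, adjusted p = 0.376). It read 8.63 to 8.83 in the TG arrays and 8.21 to 8.63 in the WT arrays, with WT2 just below TG4. The phosphatase gene Ptpn11 differed by -0.19 (adjusted p = 0.427), and Socs3 by 0.29 (adjusted p = 0.518). Among 13 sensing and adaptor genes, Cgas, the cytosolic DNA sensor, differed by -0.61 (interval -1.05 to -0.16, adjusted p = 0.26). It read 6.76, 6.81, 6.28 and 7.02 in TG1 to TG4 and 6.91, 7.58, 7.25 and 7.55 in WT1 to WT4, and only TG4 overlapped the WT arrays. Ticam1, the adaptor of TLR3, was 0.34 higher (adjusted p = 0.424), with groups that did not overlap, and the kinase gene Tbk1 differed by 0.30 (adjusted p = 0.641).

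Of the remaining interferon-induced genes 33 were tested. Of these, 12 had the higher and 21 the lower mean in TG arrays, with a median of -0.037, and at an unadjusted p below 0.05 none was higher and 7 were lower, beside 5.39% and 5.79% of all genes. None passed after adjustment. The 3 with the smallest p were Ifitm2, Ly6e and Ifitm1, which encode small membrane proteins. Ifitm2, whose product blocks viral fusion, read 11.43, 11.43, 11.50 and 11.61 in TG1 to TG4 and 11.73, 11.91, 11.67 and 11.81 in WT1 to WT4. The groups did not overlap, and the log2 fold change was -0.29 (interval -0.46 to -0.11, adjusted p = 0.147).

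Ly6e was lower by a similar amount, with TG arrays at 11.88 to 12.14 and WT arrays at 12.22 to 12.29 (difference -0.23, adjusted p = 0.212). Ifitm1 differed by -0.44 (adjusted p = 0.233), with only TG2 among the WT arrays. The other 4, named after their values were seen, were Ifitm3 (-0.21), Lgals9 (-0.38), Ifi27l2a (-0.53) and Trafd1 (-0.20). Of 12 macrophage markers, 4 were lower (Csf1r, C1qa, C1qb and C1qc) and Ear2 was higher at the same unadjusted level, which 5.79% of all genes passed as lower and 5.39% as higher. The macrophage markers' mean deviation was -0.24 to 0.035 in TG arrays and -0.10 to 0.31 in WT arrays, highest in WT1 and WT4. Mesenchymal markers stood at -0.19 to -0.020 in TG arrays and -0.16 to 0.23 in WT arrays, and lung epithelial markers at 0.0057 to 0.12 and -0.11 to 0.029. The part of these cells in the values of the interferon-induced genes was not tested.

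Of 13 tested genes induced mainly by interferon gamma, none passed even the unadjusted level, and the 3 with the smallest p were Gbp6 (0.49, interval -0.098 to 1.07), Gbp5 (-0.68, -1.55 to 0.20) and Irgm2 (-0.27, -0.68 to 0.15). Among the 13, Cxcl11 read 15.47 to 15.82, near the top of the scale, while Cxcl9 had group means of 2.80 and 2.85. Whether the Cxcl11 feature reads that gene was not tested. Of 16 antigen presentation genes none passed the unadjusted level either. Tap2, a subunit of the peptide transporter, differed by 0.47 (interval -0.012 to 0.95), the class II gene H2-Ab1 by 0.33 (-0.065 to 0.73) and the nonclassical class I gene H2-T23 by -0.30 (-0.66 to 0.055). H2-K1, a class I heavy chain named for the array pattern, read 13.73 in WT1 and 12.35 to 12.82 in the other 7 arrays.

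Of 7 tested markers of plasmacytoid dendritic cells, a main source of type I interferon, none was called. One of them, Siglech, read 14.2 to 14.7, about as bright as the lung epithelial marker Sftpa1 at 14.1 to 14.5. Whether the signal of these markers comes from plasmacytoid dendritic cells was not tested. Il3ra was lower at the unadjusted level (-0.35, adjusted p = 0.152), and the 7 markers' mean deviation was -0.13 to 0.064 in TG arrays and -0.11 to 0.11 in WT arrays. The mean deviation of the general leukocyte markers ranged from -0.11 to 0.11 in TG arrays and from -0.38 to 0.41 in WT arrays. The range of the WT arrays thus enclosed that of the TG arrays. This average mixes 2 directions. Tyrobp (-0.35) and Fcer1g (-0.29) had the lower TG mean, and the other 4 the higher, from 0.14 (Cd52) to 0.57 (Ptprc). Isg15 itself was about as high in TG4 as in TG1, where leukocyte marker levels were 0.087 and 0.095. In WT1, where these markers were highest at 0.41, Isg15 read 8.91. In TG2, at 0.11, Isg15 read 9.45, and in WT4, at -0.38, it read 9.23. The part of any cell type in the Isg15 values was not tested.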

How the data were processed

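The deposited table holds log2 intensities of 62976 features on 8 arrays. The submitters' processing notes name limma; the authors' background correction was not given in the sources used here. There are no detection calls. Its 8 columns have nearly the same quantiles, so nothing was renormalized. The array annotation gave 31465 features 1 symbol each, of which 29050 were matched by accession to RefSeq (GRCm38.p6) to update symbols, and left 31511 unnamed. Features with a missing value (189) or a mean below the 30th percentile (2.76) were left out, and the brightest feature stood for each gene. Genes were tested with limma 3.58.1 in R 4.3.3 (lmFit, eBayes with a variance trend), two-sided, TG minus WT, without covariates. The threshold for a call was an adjusted p of 0.05 (Benjamini-Hochberg, over 17229 genes). The fit was tested on simulated data. The number of arrays limits the precision.

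The 33 genes passed the filter (52 features, 10 genes with several). They and the other gene lists were chosen with earlier results of these data known, so no list was tested as a set. All 33 are named. Values in every array are given for the 10 with the largest difference and for Irf7, Isg15, Ifit1, Mx1 and Stat2; those of Cmpk2, Igtp and Gbp2 were added after they were seen. Of each further pathway list the 3 genes with the smallest p are named. Other genes, and all cell type markers named, were chosen after their values were seen. Two-sided intervals are 95%. The alternatives were other filters, normalizations, ways to combine features, no variance trend, array weights, a replicate block, an Xist covariate and leaving out each array. Same-numbered arrays did not deviate together over all genes (correlations -0.065 to 0.067). This cannot exclude a pairing that touches fewer genes, and the labels do not say whether the numbers pair the arrays.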

Additional observations from a re-analysis of the deposited data

Results flagged for a closer look

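In 3 of 66 groups of 4 arrays (33 genes in 2 genotypes), 1 array stood apart from the other 3 by Dixon's test at the 95% level, which is 4.55% of the groups. Chance gives about 1 in 20. Rtp4 read 9.83 in WT2 and 9.18 to 9.28 in the other WT arrays. Trim30a read 4.85 in WT2 and 5.81 to 5.97 in the others. Igtp read 9.73 in WT1 and 9.19 to 9.24 in the others.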

How the results depend on the processing

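The count of called genes among the 33 was 0, and it stayed 0 under 7 of the 9 settings that keep all arrays. It was 1 (Isg15 each time) with the replicate block, where the adjusted p was 0.0446, and with the Xist covariate. Leaving out 1 array gave counts from 0 to 1, with the 1 without TG3. The median over the 33 genes moved from 0.013 (without WT4) to 0.12 (without WT1). Over all genes the 137 calls became 1 without the variance trend, 80 with the Xist covariate, and 34 (without WT2) to 173 (without WT1) when 1 array was left out. The replicate block changed no other call among the 33. The stricter filter left 31 of them, without Oas3 and Mx1.

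Of 559 log2 fold changes of the 33 genes under the 17 alternatives, 510 kept their direction and side of the threshold, 3 passed it (Isg15) and 46 in 19 genes changed sign, all of genes within 0.26 of 0. Array weights turned Oas1a to 0.025 and Xaf1 to -0.058, the Xist covariate turned them to 0.053 and -0.027, and the mean of features turned Ddx58 to -0.39 and Dtx3l to 0.27 and moved Xaf1 to 0.61 and Zbp1 to 0.35. When 1 array was left out, the ranges that crossed 0 were Ifit1 -0.10 to 0.22, Ifit2 -0.020 to 0.29, Ifit3 -0.17 to 0.13, Rsad2 -0.11 to 0.70, Usp18 -0.035 to 0.25, Mx1 -0.27 to 0.10, Oas1a -0.26 to 0.19, Oas3 -0.093 to 0.40, Xaf1 -0.16 to 0.24, Dhx58 -0.48 to 0.055, Ddx58 -0.014 to 0.078, Ifih1 -0.19 to 0.056, Parp9 -0.19 to 0.012, Parp14 -0.026 to 0.066, Dtx3l -0.25 to 0.035, Cmpk2 -0.19 to 0.25, Trim30a -0.026 to 0.35, Gbp2 -0.37 to 0.021 and Gbp3 -0.10 to 0.25. The cause of these changes was not tested. The deposited table has no column of background levels and control features were not examined, so how far dim features such as Oas3, Mx1 and Zbp1 lay above background was not tested.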

Other observations

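The 2 features of Xaf1 disagree. The brighter one read 8.11 to 9.31 on all 8 arrays. The other read 8.61 in TG1, 8.57 in TG4 and 8.51 in WT1, but only 2.66 to 3.28 in the other 5 arrays, with no value between. Arrays of both genotypes fall on each side, and the high arrays of this feature are not those of the brighter one.

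Of the 19 further features of the 33 genes, 6 differed in the opposite direction from the brightest one, in Ddx58, Dtx3l, Ifih1, Irgm1 and Zbp1. The second Ddx58 feature read 2.57, 3.56, 4.55 and 4.79 in TG1 to TG4 and 4.44 to 4.86 in the WT arrays, a mean difference of -0.80 where the brightest gave 0.022. The second Oas1a feature differed by -0.44, with TG3 and WT4 lowest at 3.94 and 3.96.

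The other genes that passed the unadjusted level were also read within the arrays of high Xist (TG1, TG4, WT1, WT2 and WT4). There Oasl1 was higher in TG arrays by 0.48 and Mx2 by 0.70, both without overlap, and Rtp4 by 0.23 with overlap. The share of all genes without overlap in these 5 arrays was not counted, so the lack of overlap is description only. Within those of low Xist, which hold 2 TG arrays and 1 WT array, the TG mean of Oasl1 was higher by 1.01, that of Rtp4 by 0.53 and that of Mx2 by 0.27.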
